A study of Artemia parthenogenetic lineage with 6 samples.

Results

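The accessible regions of 3 *Artemia* genes that the study's annotation places in signaling from the cell surface were examined, namely evm.TU.ctg232.10 (Notch signaling pathway and its positive regulation), and the adjacent genes evm.TU.ctg372.16 and evm.TU.ctg372.17 (cell surface receptor signaling pathway). Every peak that the deposited table assigns to one of these genes as its nearest gene was taken, which gave 24 of 112790 peaks and 3 of 12010 genes. All 24 peaks passed the filter on low counts. ATAC-seq, which uses the Tn5 transposase to cut and tag DNA that is not covered by nucleosomes, was performed on nuclei of whole cysts, and more reads in a peak mean that its DNA was cut more often. The ArR_5h group held cysts 5 h after embryonic diapause termination (EDT), and the ArD_0h group held cysts in diapause, at 0 h, with 3 biological replicates per group. The cysts of both groups were wild-type *A. parthenogenetica* from Ebinur Lake. The study describes dehydration and cold storage as the step that broke diapause before reactivation, and ArD_0h as collected at the diapause stage. The labels name no treatment for ArD_0h, although the protocol of all libraries describes rehydration and reactivation in seawater at 28 °C under light. For ArR_5h the treatment labels read 28, 29 and 30 °C in replicates 1, 2 and 3, and whether replicates 2 and 3 were kept warmer is not known. Reads were mapped to the assembly of a different species, *A. franciscana*, and in whole cysts fewer nuclei with an open site and less accessibility per nucleus cannot be told apart.

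Notch is a receptor on the cell surface that is activated by contact with a ligand on a neighbouring cell. After cleavage, its intracellular part enters the nucleus and acts with a DNA-binding partner of the CSL family on target genes, and in arthropod embryos the pathway is known for separating neighbouring cell fates and drawing boundaries between groups of cells. The term cell surface receptor signaling is broader and covers any signal that starts with a ligand binding a receptor in the plasma membrane. Beyond positive regulation of Notch signaling at evm.TU.ctg232.10, the annotation does not say whether the 3 genes encode receptors, ligands or regulators. It also gives evm.TU.ctg232.10 terms for the cell cycle, nucleotide biosynthesis and hydrolase or deaminase activity, evm.TU.ctg372.16 a term for an integral membrane component, and evm.TU.ctg372.17 terms for protein binding and the membrane. The study had listed these genes partly on the ArD_0h libraries, through its comparison of ArD_0h with a time of 30 min that was not analysed here, so the direction of their change is not independent evidence.

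The libraries held 5239170 to 9366963 counts in peaks. Spearman correlations of peak levels were 0.872 to 0.907 between the ArR_5h libraries and 0.83 between ArD_0h replicates 2 and 3, but 0.633 to 0.642 between ArD_0h replicate 1 and the other 2 ArD_0h libraries. ArD_0h replicate 1 therefore stood apart from its group, and the results below are also given without it. Levels are given in CPM, each count relative to the sum of counts in peaks of its library, after normalization by the trimmed mean of M-values (TMM), and differences are on the log2 scale as ArR_5h over ArD_0h. A peak was called higher or lower when its log2 difference exceeded 1 in size and its adjusted p did not exceed 0.05, with edgeR's quasi-likelihood test and Benjamini-Hochberg adjustment over all 112211 tested peaks. With 3 libraries against 3, an exact permutation test on a single peak cannot give a 2-sided p below 0.1, so the p-values rest on the fit across all peaks and measure the spread between these libraries.

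Chromatin around the 3 genes was more accessible 5 h after EDT than in diapause at many peaks, and at none was it called less accessible by edgeR or by DESeq2. Only 3 of the 24 peaks had a log2 difference below 0, and 0 of these had an unadjusted p under 0.05. Among the 24 peaks, 12 (50.0%) were called higher in ArR_5h and 0 lower, whereas 14.5% of all tested peaks were higher and 15.2% lower (16261 and 17091 peaks, or 21190 and 11934 with scaling to the library totals recovered from the RPM values). The higher peaks comprised 3 of 7 at evm.TU.ctg232.10, 6 of 12 at evm.TU.ctg372.16 and 3 of 5 at evm.TU.ctg372.17. Their levels in ArR_5h were 2.07 to 3.36 times those in ArD_0h, with adjusted p between 0.00101 and 0.0197 in edgeR's quasi-likelihood test. The median log2 difference was 0.99 over the 24 peaks and -0.07 over all tested peaks. In 16 of the 24 peaks every ArR_5h library lay above every ArD_0h library, a separation found in 26.4% of all tested peaks, and in 0 of the 24 did the ArR_5h libraries lie below, against 25.7% of all tested peaks. Without ArD_0h replicate 1, 6 of the 24 peaks were higher, 2 at each gene, while 10.8% of all tested peaks were higher and 12.6% lower. The 12 higher peaks then had log2 differences of 0.85 to 1.82 and adjusted p of at most 0.0306 in edgeR's test, so those that lost their call did so on the limit of size. Only 2 of the 24 peaks (8.33%) were called higher whichever library was left out, close to the 7.16% of all tested peaks. These were 16.7% of the 12 higher peaks, against 49.4% of the higher peaks over all tested peaks.

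**Figure D1:**
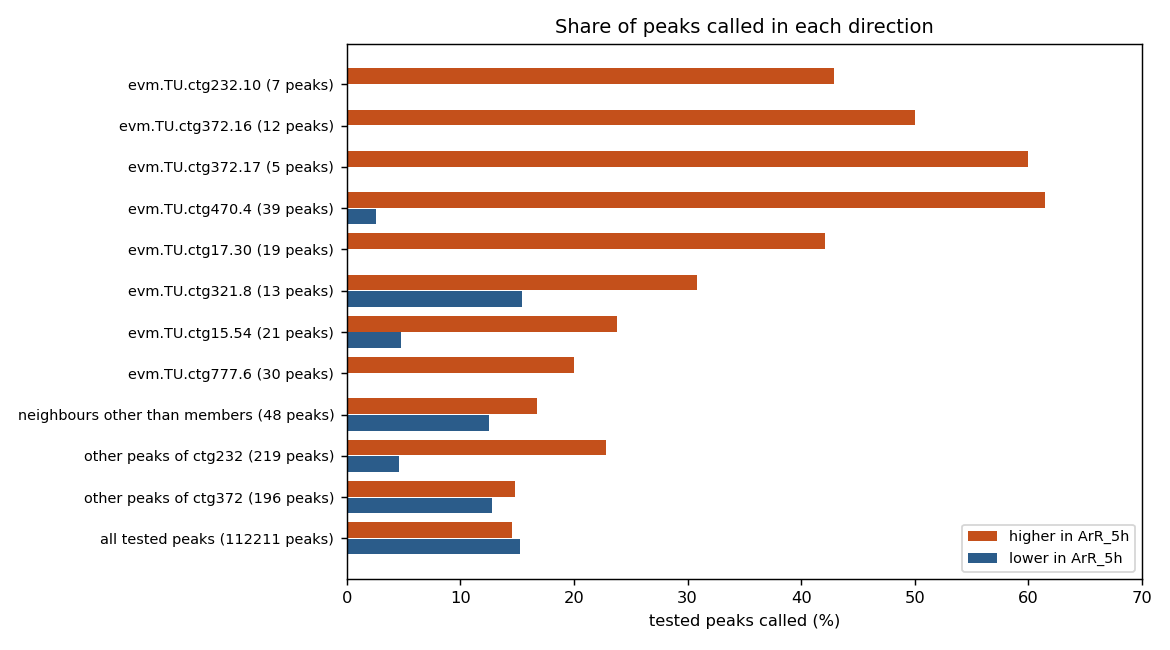
Share of tested peaks (%, horizontal axis) called higher (orange) or lower (blue) in ArR_5h than in ArD_0h, for the 3 genes, for 5 other genes annotated with cell surface receptor signaling, for the neighbouring genes, for the rest of the 2 contigs and for all tested peaks. The 3 genes have higher shares of 42.9%, 50.0% and 60.0% and no lower peak, beside 14.5% and 15.2% of all tested peaks.

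The genes differ in their layout. All 3 lie on the minus strand, so that positions downstream of the start have smaller coordinates. The gene evm.TU.ctg232.10 spans 120531 bp on ctg232:487551-608081, while evm.TU.ctg372.16 (ctg372:967014-967894) and evm.TU.ctg372.17 (ctg372:1027442-1028195) span 881 and 754 bp and are separated by 59547 bp. Distances to the transcription start site (TSS) below are those of the deposited table, positive when the peak lies downstream. The table gives no exons, so a peak inside a gene cannot be placed in an exon or an intron. Of the 12 higher peaks, 3 lay inside a gene, 4 upstream of a start, 4 beyond the end of a gene, and 1 within the promoter distance of 3000 bp. Among all tested peaks more than 3000 bp from a start, those inside their nearest gene were higher in 17.0% and lower in 11.0% of cases, those upstream in 13.0% and 18.8%, and those beyond the gene end in 12.1% and 19.3%. Per length, the peaks of evm.TU.ctg372.17 had the highest median level, with 32.9 CPM per kb over the 6 libraries and a range of 21.1 to 36.0 over its peaks. The medians of evm.TU.ctg232.10 and evm.TU.ctg372.16 were 18.0 and 16.0 CPM per kb, with ranges of 16.6 to 28.3 and 12.5 to 29.0, near the median of 16.6 over all tested peaks. The ranges of the 3 genes overlapped.

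**Figure D2:**
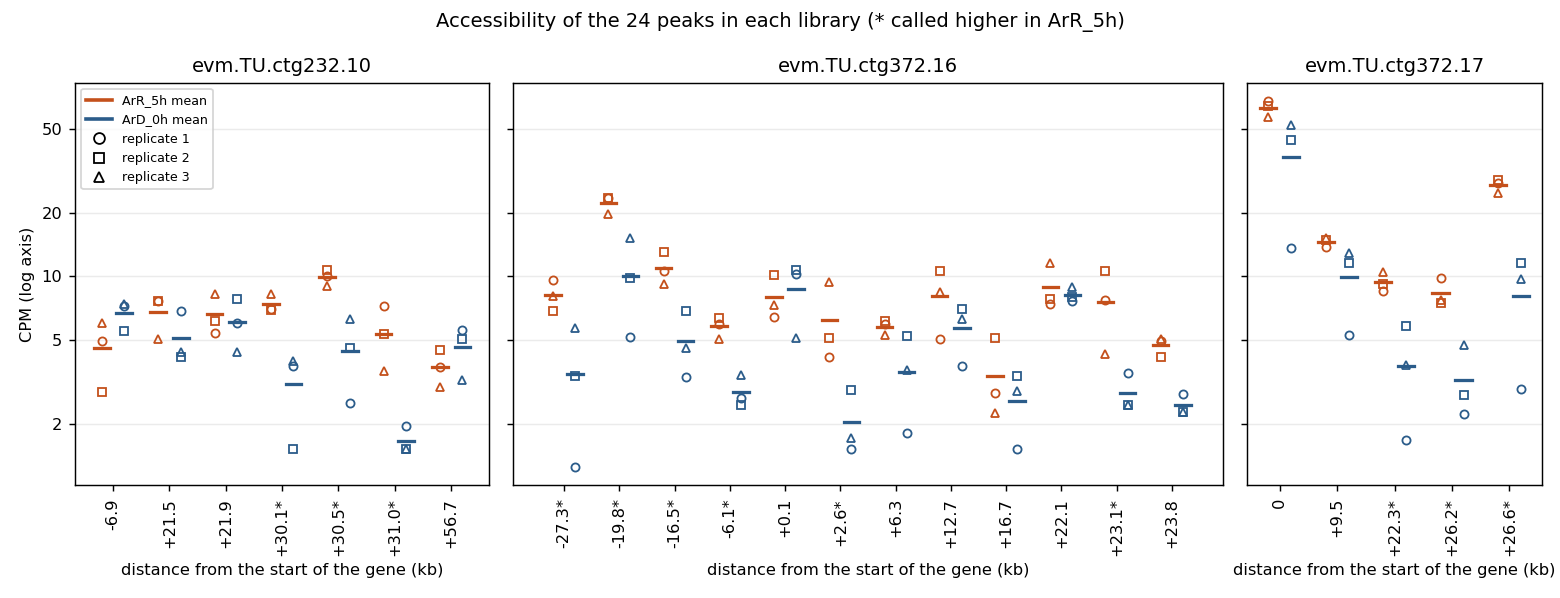
Level of each of the 24 peaks in CPM (log axis) in the 3 ArR_5h libraries (orange) and the 3 ArD_0h libraries (blue), ordered by distance of the peak from the start of its gene in kb. Symbols are replicates, bars are group means and an asterisk marks a peak called higher in ArR_5h, and the circles of ArD_0h replicate 1 lie lowest in all 5 peaks of evm.TU.ctg372.17.

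At evm.TU.ctg232.10, the gene annotated with Notch signaling, the peaks called higher were 3 neighbouring ones of its 7, inside the gene and 30070 to 31008 bp downstream of the start. They lay within 1145 bp, from 576867 to 578011 on ctg232, with gaps of 70 to 208 bp. The peak at ctg232:576867-577073, 31008 bp from the TSS, held 7.20, 5.31 and 3.56 CPM in ArR_5h replicates 1, 2 and 3, against 1.95, 1.53 and 1.52 CPM in those of ArD_0h. All 3 ArR_5h libraries were above the ArD_0h libraries, with ArR_5h replicate 1 highest and the ArD_0h libraries close together. The log2 difference was 1.69 (standard error, SE, 0.416, adjusted p = 0.00359 in edgeR's quasi-likelihood test), and the counts behind it were 64, 45 and 19 in ArR_5h and 14, 10 and 8 in ArD_0h. This was the peak of the gene with the largest difference, and it was 1.82 without ArD_0h replicate 1, but without ArR_5h replicate 1 its adjusted p was 0.0597 and it was not called.

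The peak next to it, ctg232:577282-577626, was the strongest of the gene. It held 10.0, 10.7 and 9.0 CPM in ArR_5h, against 2.5, 4.59 and 6.27 CPM in ArD_0h. The ArR_5h libraries lay close together and above ArD_0h, whose replicates spread widely with replicate 1 lowest. The log2 difference was 1.18 (SE 0.316, adjusted p = 0.00589 in edgeR's test), and 0.88 without ArD_0h replicate 1, which fell short of the limit of 1. The next peak, ctg232:577697-578011, held 6.98, 6.96 and 8.25 CPM in ArR_5h, against 3.76, 1.53 and 3.99 CPM in ArD_0h. Here the groups again did not overlap, and the lowest library was ArD_0h replicate 2. The log2 difference of 1.26 (SE 0.347, adjusted p = 0.00731 in edgeR's test) became 1.45 without ArD_0h replicate 1 and 0.98 without ArD_0h replicate 2. Runs of at least 3 consecutive higher peaks on a contig occurred 1054 times among 11329 runs of higher peaks in the table.

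The other 4 peaks of evm.TU.ctg232.10 were not called. They included a pair of touching peaks, of which that at 21865 bp downstream of the start held 5.40, 6.14 and 8.25 CPM in ArR_5h, against 5.98, 7.80 and 4.37 CPM in ArD_0h. The other, at 21544 bp, held 7.65, 7.67 and 5.06 CPM in ArR_5h, against 6.82, 4.13 and 4.37 CPM in ArD_0h. The groups overlapped in both peaks, with log2 differences of 0.10 (95% interval -0.53 to 0.73) and 0.42 (-0.22 to 1.06). The peak 56667 bp downstream had 3.71, 4.49 and 3.0 CPM in ArR_5h, against 5.56, 5.05 and 3.23 CPM in ArD_0h. Its log2 difference was -0.30 (-1.03 to 0.42), and the groups overlapped. The only peak upstream of the gene, at ctg232:614992-615191 and 6911 bp from the start, had 4.95, 2.83 and 6.0 CPM in ArR_5h, against 7.23, 5.50 and 7.41 CPM in ArD_0h. Its log2 difference was -0.57 (-1.24 to 0.10, adjusted p = 0.158 in edgeR's test), the lowest value of the 24 peaks, and the groups overlapped at ArR_5h replicate 3. No peak of the gene overlapped its TSS or lay within 3000 bp of it. Its body held 5 more peaks that the table assigns to the neighbour evm.TU.ctg232.9, whose start is nearer to them. Of these, 1 was higher, ctg232:509310-509532, with 3.49, 2.95 and 4.69 CPM in ArR_5h, against 1.67, 1.38 and 0.190 CPM in ArD_0h (log2 difference 1.69, adjusted p = 0.0246 in edgeR's test). On the upstream side, 1 of the next 5 peaks was higher, ctg232:629450-630370 of evm.TU.ctg232.11, with 26.4, 32.9 and 24.7 CPM in ArR_5h, against 6.96, 11.8 and 14.4 CPM in ArD_0h (1.35, adjusted p = 0.00227).

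**Figure D3:**
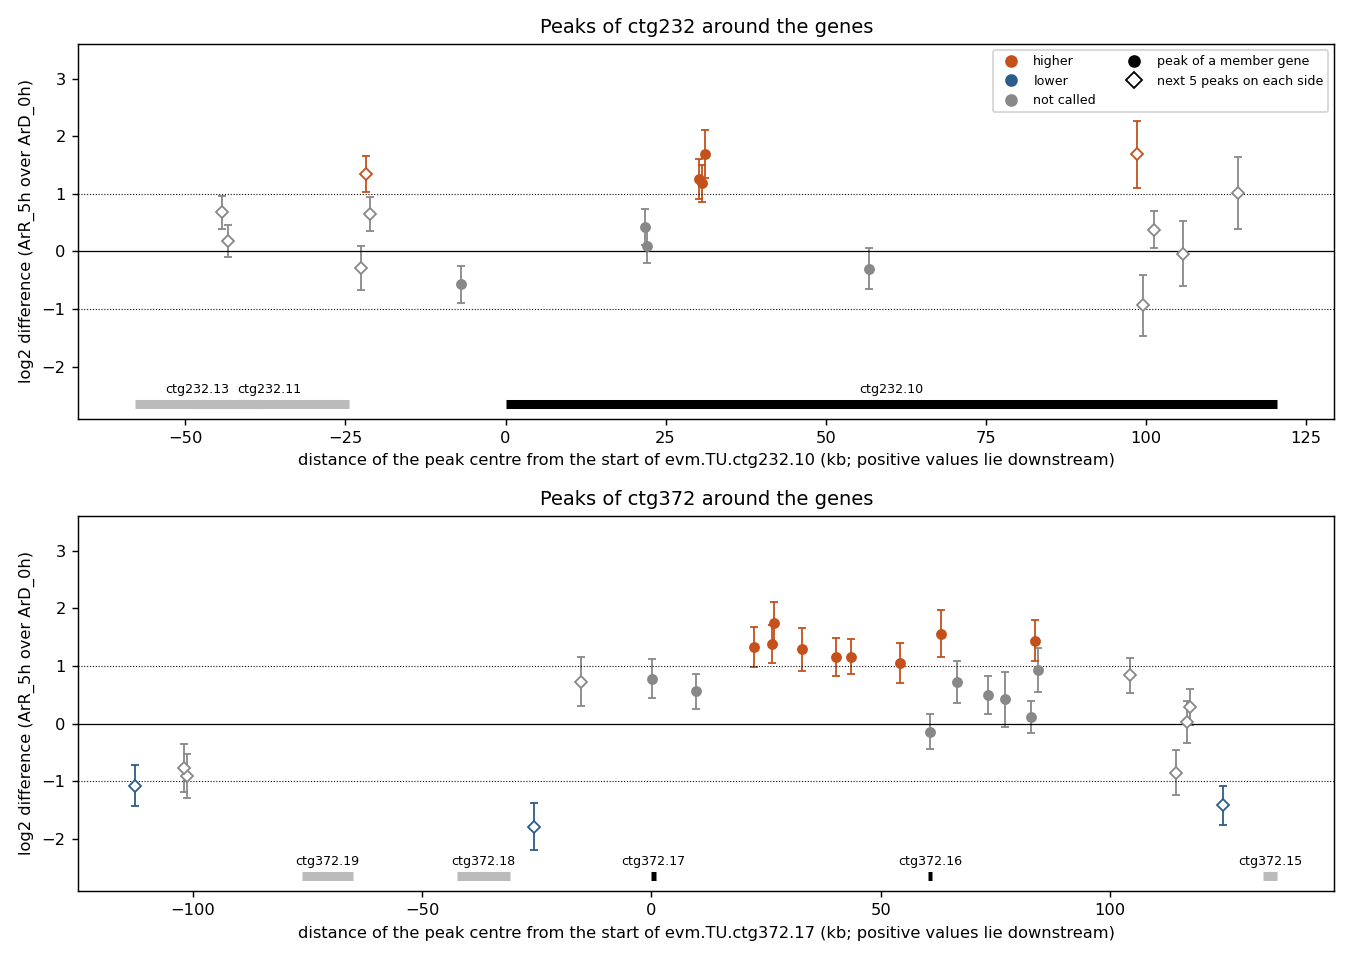
Log2 difference (ArR_5h over ArD_0h) with its standard error for each peak around the 3 genes, against the distance of the peak centre from the start of evm.TU.ctg232.10 (top) or evm.TU.ctg372.17 (bottom) in kb, positive downstream. Filled circles are the 24 peaks, open diamonds the next 5 peaks on each side, colours the call and bottom bars the gene bodies, and the higher circles are a group of 3 in the top panel and a row of 7 plus 2 more in the bottom panel; of the open diamonds, 2 are higher in the top panel and 3 are lower in the bottom panel.

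On ctg372 the higher peaks lay mainly in the DNA between the 2 genes. This interval, ctg372:967895-1027441, held 8 peaks, of which 7 were higher, with a median log2 difference of 1.23. Of the 7 peaks beyond the end of evm.TU.ctg372.16, on its other side, 2 were higher and the median was 0.72. The 7 higher peaks between the genes were consecutive, over 31893 bp from 974010 to 1005902, with gaps of 147 to 10215 bp and log2 differences of 1.05 to 1.75. The table assigns 4 of them to evm.TU.ctg372.16, which they precede, and 3 to evm.TU.ctg372.17, behind whose end they lie. Runs of at least 7 consecutive higher peaks occurred 63 times among 11329, on 59 contigs, and this run was picked out after its values had been seen. Without ArD_0h replicate 1, 2 of the 7 peaks kept their call. Around the 2 genes accessibility was called lower at the peak ctg372:903476-903781 of evm.TU.ctg372.15, a gene annotated with mitochondrial pyruvate transport, by -1.42 on the log2 scale, and at ctg372:1053590-1053789 of evm.TU.ctg372.18, by -1.79 (adjusted p = 0.00288 and 0.0021 in edgeR's test). These were 2 of the 3 lower calls among the next 5 peaks on each side, the other being ctg372:1140536-1140752 of evm.TU.ctg372.19 (-1.08, adjusted p = 0.0198).

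The 4 upstream peaks of evm.TU.ctg372.16 were all higher in ArR_5h. The strongest, ctg372:987675-988282 at 19781 bp before the start, held 23.4, 23.5 and 19.7 CPM in ArR_5h, against 5.15, 9.79 and 15.2 CPM in ArD_0h. The ArR_5h libraries lay above ArD_0h, in which the replicates differed widely and replicate 1 was lowest. Its log2 difference was 1.16 (SE 0.327, adjusted p = 0.00824 in edgeR's test), but 0.85 without ArD_0h replicate 1 and 0.86 once the trend of differences on peak level was removed, both under the limit. With that trend removed, 13.6% of all tested peaks were higher and 13.8% lower. The peak ctg372:984425-984772, at 16531 bp, held 10.6, 13.1 and 9.18 CPM in ArR_5h, against 3.34, 6.88 and 4.56 CPM in ArD_0h. The groups did not overlap, and the log2 difference of 1.16 (SE 0.306, adjusted p = 0.00545) was 0.92 without ArD_0h replicate 1.

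The upstream peak farthest from evm.TU.ctg372.16, ctg372:995187-995386 at 27293 bp, held 9.56, 6.85 and 8.06 CPM in ArR_5h, against 1.25, 3.36 and 5.70 CPM in ArD_0h. The groups were separate, but ArD_0h spread widely and replicate 1 was lowest. The log2 difference was 1.29 (SE 0.374, adjusted p = 0.00982 in edgeR's test), and 0.87 without ArD_0h replicate 1. The upstream peak nearest to the start, ctg372:974010-974209 at 6116 bp, was tight in both groups, with 5.96, 6.37 and 5.06 CPM in ArR_5h, against 2.64, 2.45 and 3.42 CPM in ArD_0h. It did not overlap between groups and had the smallest called difference of the 12, at 1.05 (SE 0.345, adjusted p = 0.0197), and it kept its call in 3 of the 6 fits that left out 1 library each. Without ArD_0h replicate 1 its difference was 1.00, not above the limit.

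At the gene evm.TU.ctg372.16 itself accessibility was not called different. The peak ctg372:967214-967788, inside the gene and 106 bp from its start, held 6.41, 10.2 and 7.31 CPM in ArR_5h, against 10.3, 10.7 and 5.13 CPM in ArD_0h. The groups overlapped fully, with a log2 difference of -0.14 (95% interval -0.77 to 0.49, adjusted p = 0.725 in edgeR's test). Just past the gene end, ctg372:965012-965293, 2601 bp from the start, held 4.16, 5.08 and 9.37 CPM in ArR_5h, against 1.53, 2.91 and 1.71 CPM in ArD_0h. All ArR_5h libraries were above ArD_0h, with replicate 3 well above the other 2. The log2 difference was 1.56 (SE 0.409, adjusted p = 0.00538), and without ArR_5h replicate 3 it was 1.17 with an adjusted p of 0.0703. This was the only higher peak within 3000 bp of a start, a class in which, leaving out peaks that overlap the start, 12.4% of tested peaks were higher and 7.04% lower.

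Farther beyond the end of evm.TU.ctg372.16, 1 of 6 peaks was higher. It lay at ctg372:944436-944802, 23092 bp from the start, and held 7.76, 10.6 and 4.31 CPM in ArR_5h, against 3.48, 2.45 and 2.47 CPM in ArD_0h. The ArR_5h values varied widely but stayed above ArD_0h, and the log2 difference was 1.44 (SE 0.355, adjusted p = 0.00355 in edgeR's test). Without ArR_5h replicate 2 the adjusted p was 0.0576, while without ArD_0h replicate 1 the difference was 1.64. The peak beside it, 23791 bp from the start, held 4.95, 4.13 and 5.06 CPM in ArR_5h, against 2.78, 2.29 and 2.28 CPM in ArD_0h. Its groups did not overlap, but the log2 difference of 0.93 (adjusted p = 0.056) stayed just outside both limits. The same held for the groups of the peak 6253 bp from the start, with a difference of 0.72 (adjusted p = 0.109). The remaining 3 peaks, 22126, 16668 and 12692 bp from the start, overlapped between groups and had log2 differences of 0.12, 0.42 and 0.50.

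All 5 peaks of evm.TU.ctg372.17 had their 3 ArR_5h libraries above their 3 ArD_0h libraries, as did 26.4% of all tested peaks. ArD_0h replicate 1 was the lowest library in all 5 peaks of the gene, against 28.4% of all tested peaks. The strongest change of the 24 peaks was found here, at ctg372:1001145-1001630, beyond the gene end and 26565 bp from the start. It held 27.6, 28.6 and 24.7 CPM in ArR_5h, against 2.92, 11.6 and 9.69 CPM in ArD_0h. The ArR_5h libraries were tight and far above the highest ArD_0h library. The log2 difference was 1.75 (SE 0.359, adjusted p = 0.00101 in edgeR's test), and 1.33 (adjusted p = 5.63e-09) without ArD_0h replicate 1. Its neighbour 147 bp away, ctg372:1001778-1002017, held 9.79, 7.44 and 7.69 CPM in ArR_5h, against 2.23, 2.75 and 4.75 CPM in ArD_0h. Its groups did not overlap either, with a log2 difference of 1.39 (SE 0.330, adjusted p = 0.00285), and 1.17 without ArD_0h replicate 1. Among the 24 peaks, these 2 (8.33%) were called higher whichever library was left out, close to the 7.16% of all tested peaks. As a share of the peaks called higher with all libraries, this was 2 of 12 (16.7%) at the 3 genes and 8032 of 16261 (49.4%) over all tested peaks.

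Another higher peak of evm.TU.ctg372.17, ctg372:1005703-1005902, held 8.55, 9.21 and 10.5 CPM in ArR_5h, against 1.67, 5.81 and 3.80 CPM in ArD_0h. Its groups were separate, and the log2 difference of 1.33 (SE 0.344, adjusted p = 0.00497 in edgeR's test) was 0.93 without ArD_0h replicate 1. The peak over the TSS, ctg372:1027268-1028677, was 1410 bp wide, covered the whole gene and carried 14 summits, and its mean level exceeded that of 99.1% of tested peaks. It held 67.7, 63.7 and 56.6 CPM in ArR_5h, against 13.6, 44.3 and 52.1 CPM in ArD_0h. ArD_0h replicates 2 and 3 came close to the ArR_5h libraries, while replicate 1 was far below all of them. Its log2 difference of 0.78 (95% interval 0.08 to 1.48, adjusted p = 0.0692) was not called. Without ArD_0h replicate 1 it was 0.38 (adjusted p = 0.031), and without ArD_0h replicate 3 it was 1.12 (adjusted p = 0.0379) and called higher. Among all tested peaks that overlap a TSS, 27.5% were higher and 0.982% lower. The last peak, 9485 bp from the start, held 13.8, 14.8 and 15.2 CPM in ArR_5h, against 5.29, 11.6 and 12.9 CPM in ArD_0h, with a log2 difference of 0.56 (-0.07 to 1.19) that was not called.

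**Figure D4:**
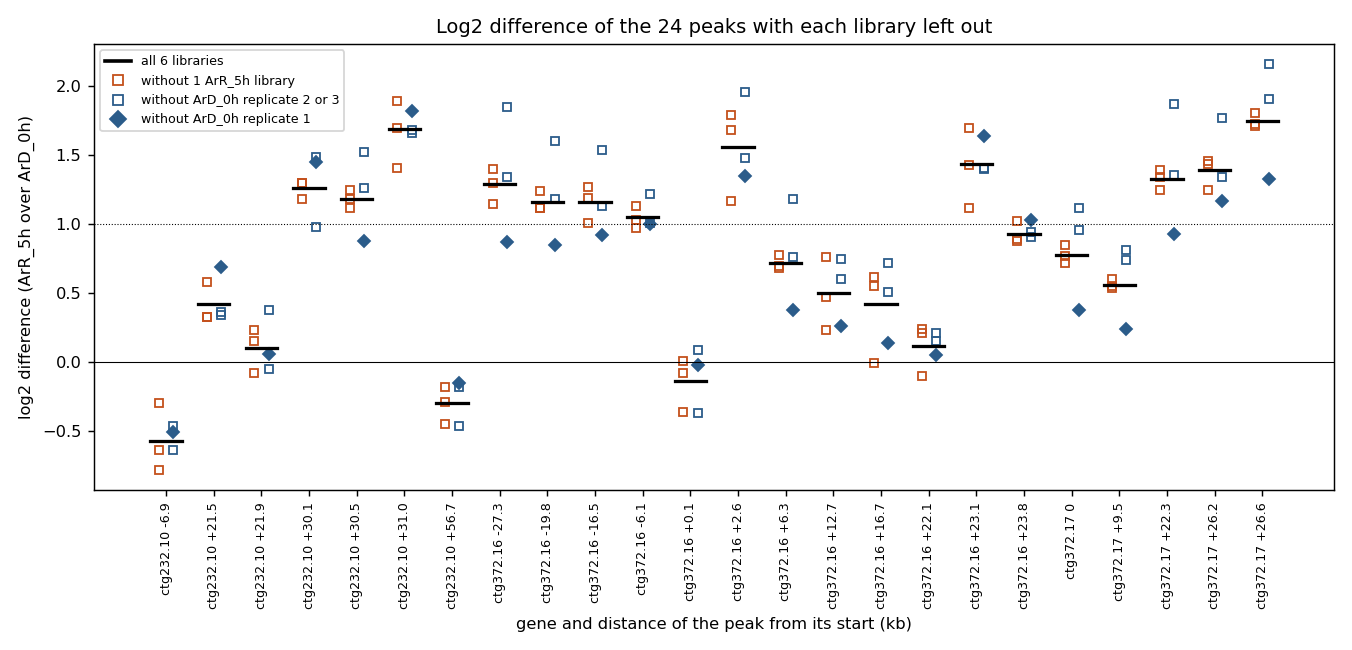
Log2 difference (ArR_5h over ArD_0h) of the 24 peaks with all 6 libraries (black bars) and with each library left out in turn (orange squares for ArR_5h libraries, blue squares and filled diamonds for ArD_0h libraries), ordered by gene and by distance from its start in kb. The diamonds, which leave out ArD_0h replicate 1, are the lowest points for all 5 peaks of evm.TU.ctg372.17, and the dotted line is the limit of 1.

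ArD_0h replicate 1 was low at many of the peaks. It was the lowest of the 6 in 13 of the 24 peaks (54.2%), against 28.4% of all tested peaks. It was lowest in 1 of 7 peaks of evm.TU.ctg232.10, in 7 of 12 of evm.TU.ctg372.16 and in 5 of 5 of evm.TU.ctg372.17. The mean of ArR_5h was also set against each ArD_0h library alone, on log2 values with 0.5 CPM added. The median differences from ArD_0h replicates 1, 2 and 3 were 0.11, 0.63 and 0.56 over the 7 peaks of evm.TU.ctg232.10, of which 4, 4 and 6 were positive. They were 0.97, 0.76 and 0.59 over the 12 peaks of evm.TU.ctg372.16 and 2.16, 0.65 and 0.74 over the 5 peaks of evm.TU.ctg372.17, beside -0.11, -0.00 and -0.01 over all tested peaks. Replicate 1 thus gave the smallest median of the 3 at evm.TU.ctg232.10 and the largest at the other genes. Its counts in peaks were 10.64% of its recovered library total, against 12.96% and 12.68% in ArD_0h replicates 2 and 3. What sets ArD_0h replicate 1 apart was not tested.

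Counts were also summed over all peaks of each gene and fitted across 12002 genes, where 21.1% of genes were higher and 22.7% lower at an adjusted p no greater than 0.05. For evm.TU.ctg232.10 the sum was 44.0, 43.1 and 42.7 CPM in ArR_5h, against 36.0, 30.4 and 31.0 CPM in ArD_0h. The groups did not overlap, and the log2 difference was 0.41 (SE 0.128, adjusted p = 0.0268 in edgeR's quasi-likelihood test), or 0.42 (adjusted p = 0.0705) with the replicate number as a block. It was called in 1 of the 6 fits that left out 1 library, that without ArD_0h replicate 1, and the other 5 gave 0.37 to 0.42 with adjusted p of 0.0631 to 0.104. For evm.TU.ctg372.16 the sum was 90.2, 107 and 94.8 CPM in ArR_5h, against 48.2, 64.9 and 61.9 CPM in ArD_0h, with a log2 difference of 0.74 (SE 0.132, adjusted p = 0.00245). When each gene was summed only over the peaks in the gene or within 3000 bp of its start, the difference of evm.TU.ctg372.16 was 0.21 (adjusted p = 0.604). For evm.TU.ctg372.17 the sum was 122, 121 and 114 CPM in ArR_5h, against 27.4, 76.8 and 82.9 CPM in ArD_0h. Its log2 difference was 0.94 (SE 0.312, adjusted p = 0.035), and 0.58 without ArD_0h replicate 1, whose sum was far below those of the other libraries. Without ArR_5h replicate 1, 2 or 3 it was 0.92, 0.93 or 0.97 and not called, with adjusted p of 0.095, 0.0907 or 0.0771. With the same restriction, which leaves the peak over its start, it was 0.65 (adjusted p = 0.154).

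The 5 other genes of the annotation at hand with the cell surface receptor signaling term were read in the same way, and they too were listed by the study partly on the ArD_0h libraries. They had 122 peaks, 47 (38.5%) of them higher in ArR_5h and 4 (3.28%) lower, against 14.5% and 15.2% of all tested peaks. Their median log2 difference was 0.80. The gene evm.TU.ctg470.4, which the study names as an epidermal growth factor receptor, a tyrosine kinase that passes growth signals to the Ras pathway, had 24 of 39 peaks higher and 1 lower. The study had listed this gene as up-regulated both before and after 30 min, so the ArR_5h libraries also entered its selection. Its 24 higher peaks, part of the 47, are therefore not independent of how it was chosen. At evm.TU.ctg17.30 and evm.TU.ctg15.54, both annotated with Wnt signaling, 8 of 19 (42.1%) and 5 of 21 peaks (23.8%) were higher, with 1 lower peak at evm.TU.ctg15.54. At evm.TU.ctg777.6, annotated with Wnt signaling and receptor binding, 6 of 30 peaks (20.0%) were higher, nearer to the share of all tested peaks. At evm.TU.ctg321.8, a Frizzled-type receptor, the class that binds Wnt ligands, 4 of 13 peaks were higher and 2 lower. ArD_0h replicate 1 was the lowest library in 75 of these 122 peaks, against 28.4% of all tested peaks.

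Pooled over both contigs, the neighbours were closer to the background of 14.5% higher and 15.2% lower. The genes on each side of the 3, other than themselves, had 48 peaks, of which 8 (16.7%) were higher and 6 (12.5%) lower, with a median log2 difference of 0.04. Of these, evm.TU.ctg232.9, next to the Notch-annotated gene, had 5 of 14 peaks higher and 1 lower. Its summed counts had a log2 difference of 0.81 (adjusted p = 0.00163 in edgeR's test). Those of evm.TU.ctg232.11, on the other side, had 0.87 (adjusted p = 0.00917 in edgeR's test). Both were larger than the 0.41 of evm.TU.ctg232.10, so a summed gain was not particular to that gene. The sums of evm.TU.ctg232.6 (-0.29), evm.TU.ctg232.13 (0.31) and the neighbours on ctg372 (-0.60 to 0.26) were not called. Among the other peaks of ctg232, 50 of 219 (22.8%) were higher and 10 (4.57%) lower. Among the other peaks of ctg372, 29 of 196 (14.8%) were higher and 25 (12.8%) lower. Among 8414 genes with at least 5 tested peaks, a share of higher peaks as large as that of evm.TU.ctg232.10, evm.TU.ctg372.16 or evm.TU.ctg372.17 was found in 5.73%, 3.91% or 1.5% of genes, and 36.8% of genes had no lower peak. The study had listed the 3 genes partly on the ArD_0h libraries, so these shares are not independent of how they were chosen. Without ArD_0h replicate 1, only 2 peaks of each of the 3 genes were higher.

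The genes with the most similar summed profile were taken among 522 genes listed in the study's annotation, by the root-mean-square difference of log2 summed CPM over the 6 libraries after centring. That annotation covers genes that the study had listed for matching changes in accessibility and expression, partly on these libraries. A gain shared by the nearest profiles is therefore not independent of how the genes were listed. Nearest to evm.TU.ctg232.10 were evm.TU.ctg984.5, an integral membrane component, and evm.TU.ctg3094.1, at 0.0427 and 0.0578, where the median over the genes compared was 0.256. Nearest to evm.TU.ctg372.16 were evm.TU.ctg24.23, annotated with metal ion binding, and evm.TU.ctg106.12, at 0.0561 and 0.0587 against a median of 0.233. Nearest to evm.TU.ctg372.17 were evm.TU.ctg55.53 and evm.TU.ctg296.18, at 0.0862 and 0.138 against a median of 0.517. These last profiles share the low value of ArD_0h replicate 1, with 220, 195 and 183 CPM in ArR_5h, against 44.9, 121 and 122 CPM in ArD_0h, at evm.TU.ctg55.53.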

How the data were processed

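For ATAC-seq the authors trimmed adaptors with skewer, aligned reads with BWA to the *A. franciscana* assembly, removed mitochondrial and low-quality alignments and called peaks with MACS2. They used ChIPseeker for the distribution of peaks over functional regions. The tool that counted reads, whether ChIPseeker also gave the nearest genes of the table, and any shift for the Tn5 offset are not given in the sources used here. The authors' deposited counts are whole numbers per merged peak and library, and the RPM values deposited by the authors are the count plus 1, divided by a library total that was recovered from them. The counts in peaks were 13.7% to 14.8% of that total in ArR_5h and 10.6% to 13.0% in ArD_0h, and a peak of the 3 genes held 8 to 602 counts per library. The deposited table had no columns for fold change or significance.

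Differences between groups were estimated with edgeR 4.0.16 in R 4.3.3 (TMM, filterByExpr, quasi-likelihood test, group only, all 6 libraries), Benjamini-Hochberg adjusted over all 112211 tested peaks. The SE was taken as the size of the log2 difference over the root of its F statistic, and intervals have a level of 95%. Gene sums were called on an adjusted p no greater than 0.05, since no limit on size had been set for them. The alternatives were DESeq2 1.42.0 and its size factors, the library totals behind the RPM values, no filter, removal of the trend on level, the adjusted p alone, a replicate block, each library left out in turn, gene sums over near peaks only, and a promoter distance of 1000 bp. Tables and figures were made in Python 3.11.15 with pandas 2.3.3 and matplotlib 3.10.9. The procedure was tested on simulated data with the same variability for all peaks and no outlying library. That test therefore does not show how calls behave with a library such as ArD_0h replicate 1.

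Every peak of the 3 genes is named. The 2 genes on each side, the 5 other genes with the cell surface receptor signaling term and, for each of the 3 genes, the 2 genes with the nearest profile among those with at least 5 tested peaks are named by rule. The members and lists were chosen with earlier results of these data known. Coordinates are those of the authors' table. No genome sequence was used here, so no sequence or motif is given. The ArR_30min and RNA-seq data were not analysed here.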

Additional observations from a re-analysis of the deposited data

How the results depend on the processing

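With DESeq2, DESeq2 size factors, no filter, or the replicate block, the 12 higher peaks kept their call and no other of the 24 gained one. Scaling to the library totals recovered from the RPM values moved the median over all peaks by 0.16 and added the peak of evm.TU.ctg372.16 at 23791 bp (1.09), and removal of the trend on level added the same peak (1.14) and lost the one at -19781 bp (0.86). The uncalled peak of evm.TU.ctg372.16 at 106 bp turned to 0.02 with the library totals and that at 22126 bp to -0.07 without the trend on level, and the cause was not tested.

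With 1 library left out, the number of higher peaks ranged over 2 to 3 at evm.TU.ctg232.10, 2 to 7 at evm.TU.ctg372.16 and 2 to 4 at evm.TU.ctg372.17, with 0 lower in every fit. The low values at evm.TU.ctg372.16 came without ArD_0h replicate 1 (2 peaks) and without ArR_5h replicate 1 (3 peaks). Over all tested peaks, 11373 to 19301 were higher and 9561 to 17601 lower, the fewest lower without ArR_5h replicate 1. The uncalled log2 differences that changed sign ranged from -0.08 to 0.38 at 21865 bp of evm.TU.ctg232.10, and at evm.TU.ctg372.16 from -0.10 to 0.24 at 22126 bp, -0.01 to 0.72 at 16668 bp and -0.37 to 0.09 at 106 bp. The gene-summed difference ranged from 0.37 to 0.50 for evm.TU.ctg232.10, from 0.62 to 0.83 for evm.TU.ctg372.16 and from 0.58 to 1.19 for evm.TU.ctg372.17. It was not called in 5 of 6 such fits for the first of these and in 3 of 6 for the last, those without 1 ArR_5h library. Over peaks in the gene or within 3000 bp of its start, it was 0.21 for evm.TU.ctg372.16 and 0.65 for evm.TU.ctg372.17, neither called.

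The replicate numbers were not shown to pair the libraries, since same-numbered libraries deviated from their group means with correlations of -0.207, 0.004 and -0.145. With the replicate number as a block, the gene-summed difference of evm.TU.ctg232.10 was 0.42 and lost its call (adjusted p = 0.0705 in edgeR's test), and no other call at the 3 genes changed. With a promoter distance of 1000 bp, 2 peaks stayed in promoters and neither was called. Peaks with about 10 counts in a library, as at 31008 bp of evm.TU.ctg232.10, limit the precision.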
